A study of Mus musculus with 10 samples.

Results

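The hair shaft keratins are the hard keratins that fill the cortex and cuticle of the hair fiber. The 10 genes described here were taken by symbol from a table of 24454 genes. They are *Krt31*, *Krt32*, *Krt33a*, *Krt33b*, *Krt34* and *Krt35* of type I and *Krt81*, *Krt84*, *Krt85* and *Krt86* of type II. Earlier results of these data were known when they were chosen. All 10 passed the filter on low counts, which left 15543 genes for testing. RNA-Seq libraries came from the full thickness of treated back skin that held no tumor, 5 from WT and 5 from *Zfp36*ΔARE mice. All animals were on the C57BL/6 inbred background and had been shaved. They received 400 nmol of the mutagen 7,12-dimethylbenz[a]anthracene (DMBA) at 7 weeks of age. From the next week the same skin was given 10 nmol of the tumor-promoting phorbol ester 12-0 tetradecanoylphorbol-13-acetate (TPA) 2 times a week over 20 weeks. *Zfp36* encodes tristetraprolin (TTP), a protein that binds AU-rich elements and hastens mRNA decay. In *Zfp36*ΔARE mice an instability stretch is missing from the 3′-UTR of the endogenous gene in every cell of the body, and the WT animals were their controls. No untreated skin was analysed here, so no value below says what the treatment itself did to hair.

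Keratins are intermediate filament proteins that assemble as pairs of an acidic type I and a basic type II chain, so a fiber needs both types. During the growth phase of the follicle, matrix cells at the base of the bulb divide, move upward and switch on hair keratins in a set order. *Krt35* and *Krt85* appear first, in the matrix, precortex and cuticle, and the cortex keratins *Krt31*, *Krt33a*, *Krt33b*, *Krt34*, *Krt81* and *Krt86* follow higher up. *Krt32* is a cuticle keratin, and *Krt84* is best known from the filiform papillae of the tongue, which share much of the hair program. In mouse back skin these transcripts come and go with the hair cycle.

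The targeted gene matched the labels. *Zfp36* had between 1824 and 2496 normalized counts in WT and between 4196 and 6134 in *Zfp36*ΔARE skin. A normalized count is the count scaled by edgeR's TMM factors to a common library size. Library totals ran from 19595035 to 36419573 counts, and the groups overlapped. *Krt5* and *Krt14*, the keratins of basal keratinocytes, had between 85463 and 143989 and between 51856 and 158492 normalized counts in the 10 libraries. WT replicates 1 and 3 stood apart from the other libraries in the hair shaft keratins, so results that rest on them are also given without them, a choice made after the values were seen. Summed counts of 4 Y-linked genes were between 3349 and 4262 in *Zfp36*ΔARE replicates 2 to 5 and at most 1 in the other 6 libraries. *Xist* went the other way, with 4 to 15 counts in *Zfp36*ΔARE replicates 2 to 5 and 14829 to 28087 in the other 6. This is the pattern of male animals in the former and female animals in the latter, though the labels give no sex. Within the libraries that carry Y-linked counts there was no WT library, and among those without them only 1 *Zfp36*ΔARE library, replicate 1. These counts, and with them any difference of sex, cannot be told apart from the genotype.

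The 6 type I genes lie side by side on chromosome 11 of mm10 (GRCm38), within 85.0 kb from 100011195 to 100096241, in the order *Krt33a*, *Krt33b*, *Krt34*, *Krt31*, *Krt32*, *Krt35*. All 6 are on the minus strand and have 7 exons in their longest transcript. *Krt81*, *Krt86* and *Krt84* lie on chromosome 15 within 73.8 kb from 101459061 to 101532820, with 9 exons each, and *Krt86* is the one on the plus strand. The annotation used holds no entry for *Krt85*, so its position is not given. RefSeq promoters on GRCm38.p6, which run from 250 bases before to 50 bases after a start, matched 5 of the 10 genes. They are shown because the genes moved together over the libraries. In the stretch from 55 to 15 bases before the start, the TATA box letters TATAAA were found on the strand of the gene in 4 of the 5, *Krt31*, *Krt32*, *Krt33b* and *Krt34*, against 2.4% of all 32851 promoters. The promoter of *Krt84* held ATAAA there, which any TATAAA also contains and which 5.8% of promoters hold. The windows below are 30 bases long and are written 5′ to 3′ on the minus strand, with those letters in capitals.
Krt31, chr11:100050563-100050592: ctgtagaaggctTATAAAgtctcaccaagg
Krt32, chr11:100088281-100088310: tcacttcaagagTATAAAaaggcctgggca
Krt33b, chr11:100029898-100029927: ccactgacaggaTATAAAgctccaaagagg
Krt34, chr11:100041568-100041597: cactggtatgggTATAAAaagaccacgaag
Krt84, chr15:101532837-101532866: tgtccacacacacATAAAagaggtgagagg
The capitals began 29 bases before the start in *Krt31* and *Krt32*, 31 in *Krt34*, 33 in *Krt84* and 47 in *Krt33b*. CTTTGA or CTTTGT, letters of the core that Lef1 and Tcf proteins bind, stood on either strand in the 300-base promoters of 4 of the 5 genes, the exception being *Krt84*, and in 31.2% of all promoters. A match of letters is a description of the sequence and not evidence of binding.

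Hair shaft keratin counts were higher in *Zfp36*ΔARE than in WT skin for all 10 genes, and 3 of these differences passed the test. Group medians were between 2.6-fold and 3.28-fold higher in 9 genes and 7.58-fold higher in *Krt84*. In 9 of the 10 genes every *Zfp36*ΔARE library lay above every WT library, a separation in that direction that 11.2% of all tested genes had. In the quasi-likelihood test of edgeR, with p-values adjusted by Benjamini-Hochberg over all tested genes, *Krt32*, *Krt35* and *Krt84* rose more than 2-fold at an adjusted p below 0.05, as did 1.67% of tested genes. Without the fold condition the count was the same 3 of 10, against 15.3% of tested genes. Before adjustment all 10 had p under 0.05, which 22.5% of tested genes had on the higher side. In whole skin, more hair-forming cells and more keratin RNA per cell in *Zfp36*ΔARE mice cannot be told apart.

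*Krt35*, the type I keratin of the matrix and precortex, had 5928, 7206, 1189.7, 10485 and 12301 normalized counts in WT replicates 1 to 5. In *Zfp36*ΔARE replicates 1 to 5 it had 14735, 21647, 26660.1, 14521 and 18751. The groups did not overlap, and WT replicate 3 was the only library far below its group. *Krt35* rose by 1.38 on the log2 scale (SE 0.479, adjusted p = 0.0477, edgeR), the smallest log2 fold change of the 10 genes.

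*Krt85*, its type II partner at the base of the shaft, had 325, 1747, 28.1, 2374 and 2656 normalized counts in WT replicates 1 to 5. It had 4971, 7132, 11786, 5526 and 5331 in *Zfp36*ΔARE replicates 1 to 5. The groups were apart, and WT replicates 1 and 3 lay far below the other WT libraries. The log2 fold change was 2.28 (SE 0.857), which did not pass (adjusted p = 0.0627, edgeR).

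*Krt32*, the cuticle keratin, had 1060.0, 2385, 225, 2859 and 4032 normalized counts in WT and 6076, 8842, 7558, 5677 and 8019.95 in *Zfp36*ΔARE replicates 1 to 5. The *Zfp36*ΔARE libraries were close to each other, with a coefficient of variation of 18.4%, the lowest of the 10 genes, against 71% in WT. *Krt32* rose by 1.78 on the log2 scale (SE 0.581, adjusted p = 0.0405, edgeR).

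Among the type I cortex keratins, *Krt31* had 1000.2, 6245, 98.8, 8249.6 and 9646 normalized counts in WT replicates 1 to 5. In *Zfp36*ΔARE replicates 1 to 5 it had 19793, 29093, 42173, 20485 and 17277. The lowest *Zfp36*ΔARE library, replicate 5, was above the highest WT library, and WT spanned 97.6-fold. *Krt33a* and *Krt33b* encode closely similar cortex chains and lie next to each other. *Krt33a* had 1445, 13479, 144, 17835 and 16126 normalized counts in WT and 43394, 48609, 82223, 39024 and 28676 in *Zfp36*ΔARE replicates 1 to 5. *Krt33b* had 759.8, 6014, 69.55, 8474 and 8034 in WT and 18279, 27269.7, 46253, 18325 and 13627 in *Zfp36*ΔARE replicates 1 to 5. The order of libraries was nearly the same in both, with WT replicate 3 lowest and *Zfp36*ΔARE replicate 3 highest. *Krt34*, a keratin of the upper cortex, had 583.9, 9266, 58.6, 12265 and 8814 normalized counts in WT replicates 1 to 5 and 28778, 32272, 59963, 26770.0 and 15746 in *Zfp36*ΔARE replicates 1 to 5. Its WT libraries spanned 209-fold, the widest span of the 10 genes, and the groups were again apart. None of these 4 genes passed: their log2 fold changes were 2.35 (SE 0.905) for *Krt31*, 2.30 (0.962) for *Krt33a*, 2.41 (0.967) for *Krt33b* and 2.40 (1.05) for *Krt34*. The adjusted p-values from edgeR ran from 0.0681 for *Krt31* to 0.0999 for *Krt34*.

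The type II cortex keratins *Krt81* and *Krt86* were lowest in WT replicates 3 and 1 and highest in *Zfp36*ΔARE replicate 3, as *Krt34* was. *Krt81* had 825, 10389, 90.3, 13855 and 11252 normalized counts in WT replicates 1 to 5 and 32598, 34203, 73485, 29711 and 19371 in *Zfp36*ΔARE replicates 1 to 5. *Krt86* had 1159, 12593, 132, 16660.2 and 11608 in WT and 40121, 37573, 72960.1, 32372 and 17388 in *Zfp36*ΔARE replicates 1 to 5. The groups were apart for both genes, though for *Krt86* the lowest *Zfp36*ΔARE library, replicate 5, was close to the highest WT library, replicate 4. Their log2 fold changes were 2.38 (SE 1.02, adjusted p = 0.0931, edgeR) and 2.25 (SE 0.98, adjusted p = 0.0983, edgeR), so neither passed.

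*Krt84* was the 1 gene whose groups overlapped. It had 349, 1751, 46.4, 1666 and 521 normalized counts in WT replicates 1 to 5 and 5709, 3230.1, 6715, 3951 and 1311 in *Zfp36*ΔARE replicates 1 to 5. *Zfp36*ΔARE replicate 5 was below WT replicates 2 and 4, and WT replicate 5 was low although it was the highest or second highest WT library in *Krt31*, *Krt32*, *Krt33a*, *Krt33b*, *Krt35*, *Krt81* and *Krt85*. *Krt84* rose by 2.27 on the log2 scale (SE 0.791, adjusted p = 0.0496, edgeR). Relative to *Krt85*, *Krt84* counts stood at 0.196 in WT replicate 5 and 0.246 in *Zfp36*ΔARE replicate 5, the lowest of both groups, while the remaining 8 libraries ran from 0.453 to 1.65.

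**Figure D1:**
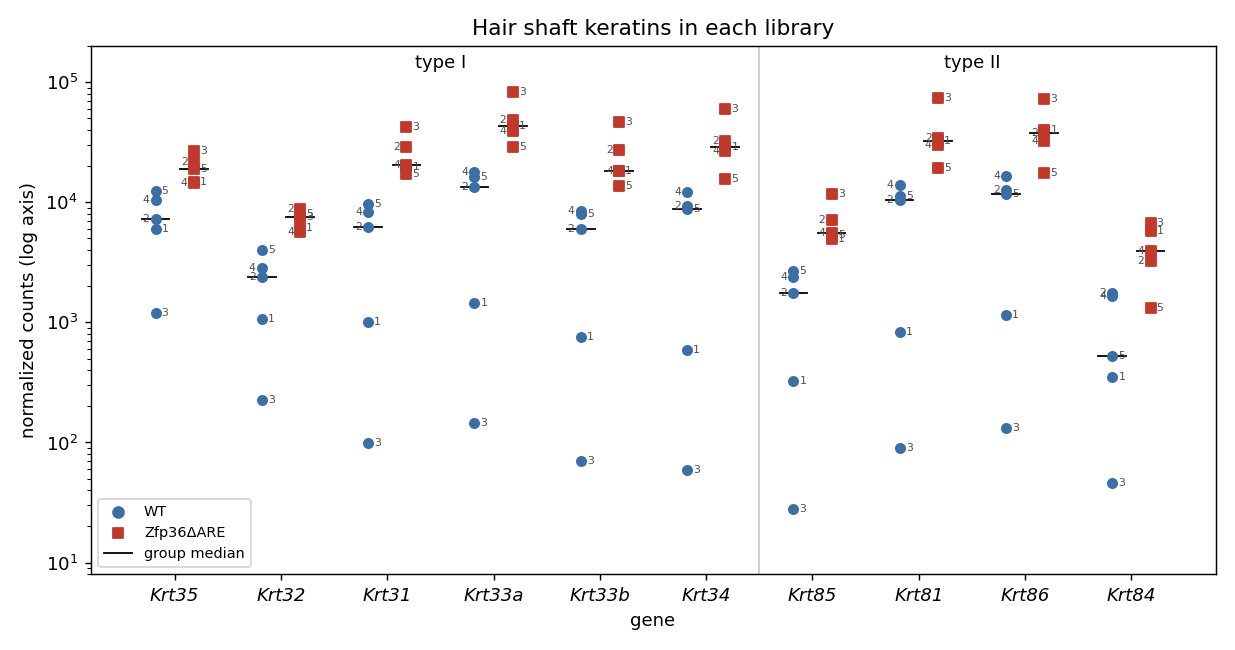
Normalized counts (log axis) of the 10 hair shaft keratins, type I on the left and type II on the right, with 1 point per library numbered by replicate, circles for WT, squares for *Zfp36*ΔARE and a line at each group median. WT replicates 1 and 3 sit lowest in every gene, and the groups overlap in *Krt84* alone.

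The spread lay mostly in WT. Coefficients of variation were between 58.1% and 90.9% over the WT libraries and between 18.4% and 54.7% over the *Zfp36*ΔARE libraries. The highest WT library exceeded the lowest by 10.3-fold in *Krt35* to 209-fold in *Krt34*, against 1.56-fold in *Krt32* to 5.12-fold in *Krt84* in the *Zfp36*ΔARE group. Together the 10 genes took 0.0539%, 0.270%, 0.00788%, 0.357% and 0.327% of all counts in WT replicates 1 to 5. They took 0.786%, 0.915%, 1.51%, 0.700% and 0.563% in *Zfp36*ΔARE replicates 1 to 5. *Zfp36*ΔARE replicate 1, without Y-linked counts like all WT libraries, was above all WT libraries in 10 of the 10 genes, which held for 30.5% of tested genes.

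How many of the 10 genes passed depended on single libraries and on the tool. The 3 adjusted p-values that passed were between 0.0405 and 0.0496. Without WT replicate 3, 7 genes passed both thresholds (1.45% of tested genes did so on the higher side), the exceptions being *Krt34*, *Krt81* and *Krt86*. Without WT replicate 5, *Krt32* and *Krt35* passed (1.86%), and *Krt84* was the 1 gene that passed without WT replicate 2 (1.77%), without WT replicate 4 (2.05%) or without *Zfp36*ΔARE replicate 5 (1.66%). None passed without WT replicate 1 (0.936% of tested genes) or without *Zfp36*ΔARE replicate 1, 2, 3 or 4 (1.33%, 0.991%, 0.855% and 1.45%). Without WT replicates 1 and 3 together, 9 genes had an adjusted p under 0.05 (6.87% of tested genes) and 8 of them also the fold (1.24%), although the log2 fold changes were smaller, from 0.94 in *Krt35* to 1.72 in *Krt33b*. *Krt84* was then at an adjusted p of 0.0782 (edgeR). DESeq2, the tool of the study, called 10 of 10 (2.24% of its tested genes) with log2 fold changes close to those of edgeR and adjusted p-values between 0.013 for *Krt32* and 0.049 for *Krt86*. limma-voom called 4 (2.23% of tested genes), *Krt85* beside the 3 of edgeR. With the skeletal muscle score or with the presence of Y-linked counts as a covariate none passed, nor did any tested gene on the higher side (0%). The muscle covariate took the log2 fold changes down to between 0.58 in *Krt32* and 1.25 in *Krt33b*, and the Y-linked covariate left them between 0.99 in *Krt35* and 2.71 in *Krt84*.

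**Figure D2:**
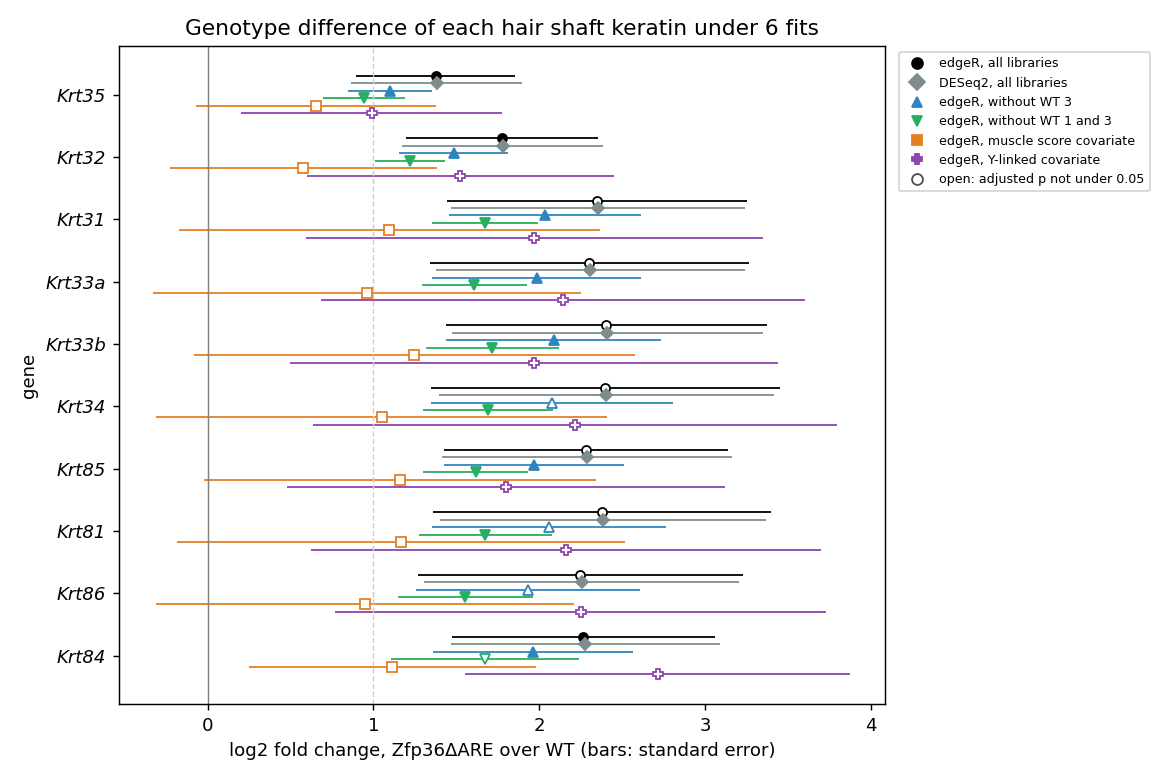
Log2 fold change (x axis) of each hair shaft keratin (rows) with its standard error in 6 fits, with filled symbols for an adjusted p under 0.05 and a dashed line at a fold of 2. The log2 fold changes are above 0 in all 6 fits, bars shorten when WT replicate 3 or both WT replicates 1 and 3 are left out, and the muscle score covariate gives values between 0.58 and 1.25.

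Levels can be set side by side between genes only per length, here as normalized counts per kb of the length given in the table. In *Zfp36*ΔARE skin *Krt33a* was highest, at 28818 ± 12080 (SD, n = 5) per kb, and exceeded the next gene in 5 of 5 libraries. *Krt86*, *Krt81* and *Krt34* came next at 20450, 20395 and 20339 per kb, and their order did not hold from library to library, *Krt86* exceeding *Krt81* in 3 of 5. *Krt31* and *Krt33b* followed at 16296 and 15655 per kb, then *Krt35* at 11186 ± 2956, *Krt32* at 4324 ± 795, *Krt85* at 3428 ± 1395 and *Krt84* at 1628 ± 824 (SD, n = 5 each). *Krt35* exceeded *Krt32* and *Krt85* exceeded *Krt84* in 5 of 5 libraries, and the steps from *Krt34* to *Krt31*, *Krt33b*, *Krt35* and from *Krt32* to *Krt85* each held in 4 of 5. In WT skin *Krt33a* was again first by its median, 8028 per kb, and *Krt32*, *Krt85* and *Krt84* were again last. *Krt35* exceeded *Krt33b* in 5 of 5 WT libraries but in 1 of 5 *Zfp36*ΔARE libraries.

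WT replicates 1 and 3 differed from the rest in which keratins they held as well as in how much. Of the summed per-kb level of the 10 genes, *Krt35* made up 44.5% and 57.5% in these libraries. It made up 10.3%, 11.2% and 14.5% in WT replicates 2, 4 and 5, with a range of 6.26% to 12.9% over the *Zfp36*ΔARE group. *Krt32* made up 8.18% in WT replicate 1 and 11.2% in WT replicate 3, against 1.83% to 5.67% elsewhere. The cortex keratins went the other way, *Krt33a* with 11.1% and 7.14% in WT replicates 1 and 3 against 19.5% to 21.1% elsewhere. Shares of a sum are not independent of each other, so a high share of *Krt35* lowers the others.

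**Figure D3:**
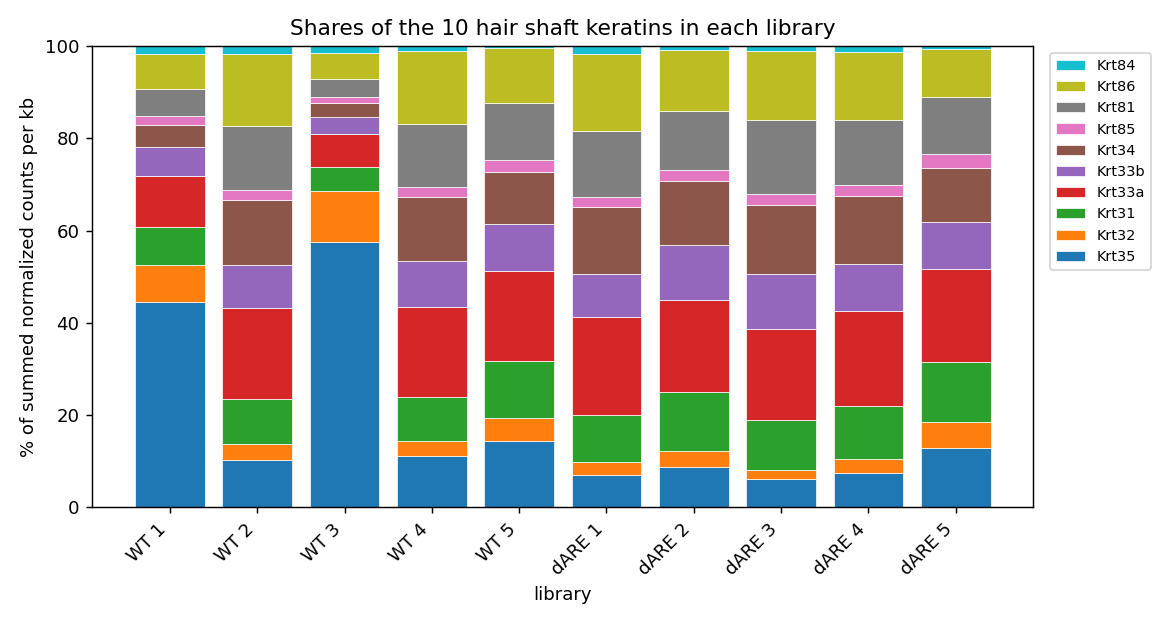
Share (y axis, %) of each of the 10 keratins in their summed normalized counts per kb, 1 bar per library, with dARE standing for *Zfp36*ΔARE. *Krt35*, at the foot of the bars, fills 44.5% of the bar in WT 1 and 57.5% in WT 3, and between 6.26% and 14.5% in the other 8.

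The balance of the chain types followed from this. Summed per kb, the 6 type I genes exceeded the 4 type II genes 4.82-fold and 7.13-fold in WT replicates 1 and 3, 2.0-fold, 2.06-fold and 2.65-fold in WT replicates 2, 4 and 5, against 1.87-fold to 2.77-fold in *Zfp36*ΔARE libraries. Adding 3 more type I and 3 more type II hair keratins of the table brought the ratio nearer to 1. It was then 2.60 in WT replicate 1, 3.66 in WT replicate 3 and 1.25 to 1.58 elsewhere.

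Ratios of counts were tested for 6 pairs with exact two-sided permutation tests of their log2 values, adjusted over the 6, since a ratio within a library does not depend on how libraries are scaled. They are ratios of counts without length and serve to compare libraries only. The *Krt35* to *Krt31* ratio, lower shaft over cortex, was 5.93, 1.15, 12.0, 1.27 and 1.28 in WT and 0.745, 0.744, 0.632, 0.709 and 1.09 in *Zfp36*ΔARE replicates 1 to 5. All 5 *Zfp36*ΔARE libraries were below all WT libraries, and the mean log2 ratio was lower by 1.79 (adjusted p = 0.0159, exact permutation test; -0.38 ± 0.29 against 1.41 ± 1.57, SD, n = 5 each). The *Krt35* to *Krt85* ratio, within the lower shaft, ran from 4.12 to 42.4 in WT and from 2.26 to 3.52 in *Zfp36*ΔARE skin. The groups were apart here too, and the mean log2 ratio differed by -1.69 (adjusted p = 0.0159, exact permutation test). The *Krt31* to *Krt71* ratio compares the cortex with the inner root sheath, the layer that moulds the shaft and holds *Krt71*. It was between 0.00774 and 0.0535 in WT and between 0.0612 and 0.122 in *Zfp36*ΔARE libraries, a mean log2 difference of 1.76 with no overlap (adjusted p = 0.0159, exact permutation test). The unadjusted p of these 3 ratios, 0.00794, is the smallest that 5 against 5 allows.

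Without WT replicates 1 and 3 the log2 differences were smaller and still passed, at -0.68 for *Krt35* to *Krt31*, -0.62 for *Krt35* to *Krt85* and 0.89 for *Krt31* to *Krt71* (adjusted p = 0.0357 each, exact permutation test). The unadjusted p of all 3 was then 0.0179 in this test, the smallest that 3 against 5 allows. Leaving out any 1 WT library kept all 3 below an adjusted p of 0.05. Leaving out any 1 *Zfp36*ΔARE library did not, with adjusted p between 0.0635 and 0.111 in exact permutation tests, although the groups stayed apart. With groups of unequal size, splits that put WT replicates 1 and 3 in the smaller group can give a larger mean difference than the genotype split. The *Krt32* to *Krt31* ratio, cuticle over cortex, was lower by 1.19 on the log2 scale in *Zfp36*ΔARE skin and did not pass (adjusted p = 0.0714, exact permutation test). It was -0.38 without WT replicates 1 and 3. *Krt85* to *Krt86* differed by -0.09 (adjusted p = 0.914, exact permutation test) and *Krt31* to *Krt86* by 0.01 (adjusted p = 0.952, exact permutation test), against standard deviations of at least 0.39 in each group.

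**Figure D4:**
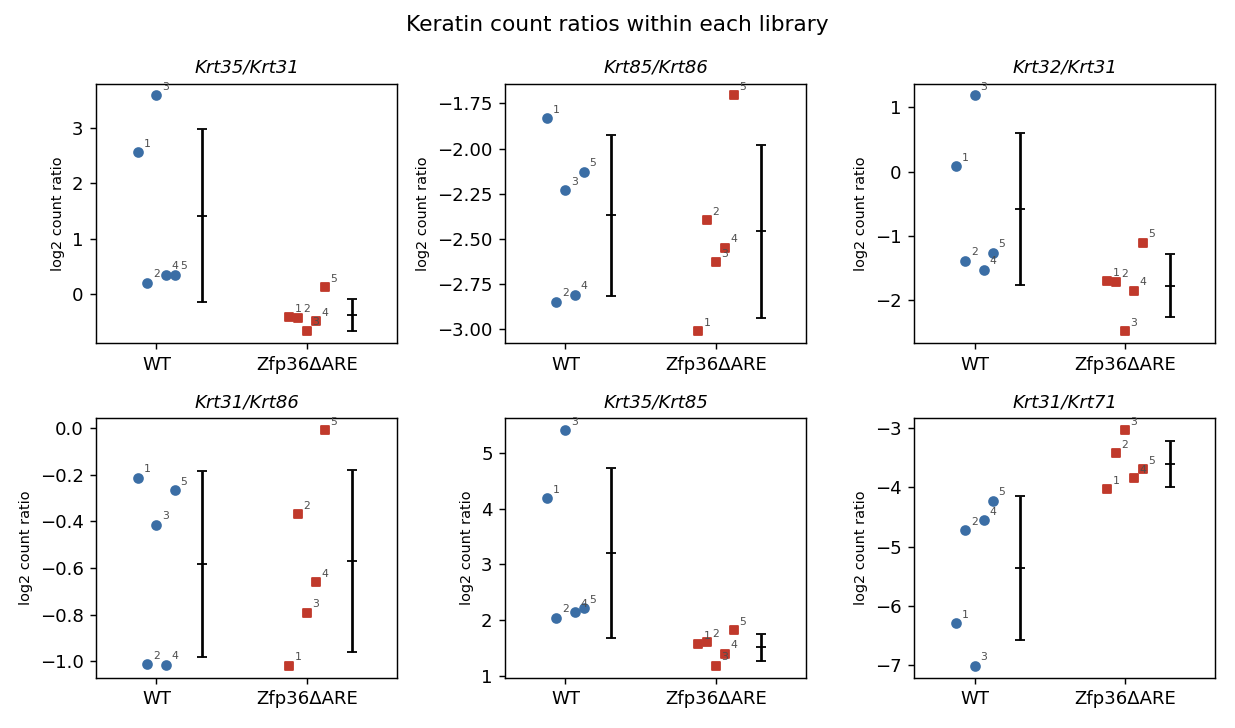
Log2 ratio of the counts of a pair of keratins (y axis of each panel, on its own scale) in each library, numbered by replicate, with bars at mean ± SD beside each group (n = 5). *Krt35* over *Krt31*, *Krt35* over *Krt85* and *Krt31* over *Krt71* separate the groups, while *Krt85* over *Krt86* and *Krt31* over *Krt86* overlap widely.

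Reads that could come from more than 1 of these genes bear on single values. In the annotated transcripts, 43.3% of the 50-base stretches of *Krt86* and 37.7% of those of *Krt81* also occur in another gene, mostly in each other, and the shares at 100 bases were 24.6% and 25%. *Krt34* shared 33.1%, *Krt31* 28.1%, *Krt33b* 24.2% and *Krt33a* 17.8% of 50-base stretches, while *Krt32* shared 6.46%, *Krt35* 2.74% and *Krt84* 0%. *Krt85* has no entry among these transcripts and was not compared. How fragments matching several genes were counted is not given in the sources used here, so the split between *Krt81* and *Krt86* and among the type I cortex genes is uncertain. The ratio of *Krt86* to *Krt81* counts stayed between 0.898 and 1.46 and that of *Krt33a* to *Krt33b* between 1.78 and 2.37 over the 10 libraries.

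The 10 genes moved together. Over the 45 pairs the correlation of log2(CPM + 1) over the 10 libraries had a median of 0.985 and a lowest value of 0.87, for *Krt35* with *Krt84*, and these libraries share the split by genotype and the low WT replicates 1 and 3. Over the 5 *Zfp36*ΔARE libraries alone the median was 0.853, and the lowest value was -0.417, for *Krt32* with *Krt84*. Outside the 10, the genes whose level was most like their mean over the 10 libraries were *Krtap1-5* (r = 0.9992), *Krt83*, *5430421N21Rik*, *Krtap3-1*, *Csdc2*, *Krtap8-1*, *Krtap7-1*, *Krtap3-3*, *Krtap4-1* and *Dsg4* (r = 0.9972). Of these, 6 are keratin-associated proteins, which crosslink keratin filaments in the cortex, and *Dsg4* encodes a desmosomal cadherin of the hair shaft. By gene identifier the table's *Krt83* is the gene RefSeq calls *Krt87*, and *5430421N21Rik* is the one it calls *Krt83*. None of the 10 passed in edgeR, with adjusted p between 0.0581 and 0.108. *Krt35* alone was most like *Bmp8a* (r = 0.9933), a bone morphogenetic protein, and *Krt84* most like *Slc3a2* (r = 0.9944), the heavy chain of amino acid transporters, searches added after the values were seen.

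Of 11 transcription factors listed for the hair shaft, 9 rose at an adjusted p below 0.05, where 15.3% of tested genes did, and 6 of them by over 2-fold. The list was not limited to factors found in the shaft alone. Its median log2 fold change was 1.16 against 0.0076 over all tested genes. *Hoxc13*, which binds hair keratin promoters, had 1212, 1940.2, 428, 2342 and 2204 normalized counts in WT and 4119, 4334, 4688, 3413 and 3277 in *Zfp36*ΔARE replicates 1 to 5. The groups were apart and WT spanned 5.47-fold, less than in any of the 10 keratins. *Hoxc13* rose by 1.29 on the log2 scale (SE 0.368, adjusted p = 0.0243, edgeR), a call lost without WT replicate 1 (adjusted p = 0.0606), *Zfp36*ΔARE replicate 2 (0.0536) or *Zfp36*ΔARE replicate 3 (0.0534), all from edgeR. With the muscle covariate its log2 fold change was 0.51. *Foxn1*, the nude mouse factor, rose by 1.49, *Msx2* by 1.48, *Foxq1* by 1.23, *Dlx3* by 1.17 and *Lef1*, a mediator of Wnt signals, by 1.16 (adjusted p from 0.0118 to 0.0269, edgeR). *Ovol1* rose by 0.88, *Msx1* by 0.86 and *Prdm1* by 0.61, under 2-fold (adjusted p from 0.0113 to 0.0491, edgeR). *Vdr*, the vitamin D receptor, and *Trps1* were at 0.24 and 0.41 and did not pass. Of the 11 factors 5 passed without WT replicate 1 (8.57% of tested genes rose), 5 without *Zfp36*ΔARE replicate 2 (8.41%) and 4 without *Zfp36*ΔARE replicate 3 (8.08%). When another single library was left out, 7 to 9 passed (10.8% to 15.1% of tested genes). Without WT replicates 1 and 3 the number was 8 (6.87% of tested genes rose), and with the muscle or the Y-linked covariate it was 0 (0%). With the replicate number as a block it was 2 (5.72%), and *Hoxc13* did not pass (adjusted p = 0.0672, edgeR).

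*Tgm3*, *Gata3* and the passing members of the lists of other cell types are named below for having passed, after their values were seen. Of 5 other hair keratins tested, *Krt36*, a type I keratin of the precortex, alone passed, where 15.3% of tested genes rose. *Krt36* rose by 1.75 (adjusted p = 0.0281, edgeR). The call was lost without WT replicate 1, WT replicate 2, *Zfp36*ΔARE replicate 2 or *Zfp36*ΔARE replicate 3 (adjusted p = 0.0634, 0.0504, 0.0603 and 0.0657, edgeR). *Krt39*, *Krt40*, *Krt82* and *Krt83* were at 2.0, 1.51, 1.56 and 2.17 without passing. Of 7 partner proteins, *Tgm3*, a transglutaminase that crosslinks shaft proteins, rose by 1.91 (adjusted p = 0.0117, edgeR), so 1 of 7 passed against 15.3% of tested genes, and the groups were apart in all 7 against 11.2%. *S100a3*, a calcium-binding protein of the cuticle, was at 1.75, *Psors1c2* at 2.03 and *Padi3*, which converts arginine in shaft proteins to citrulline, at 1.27 without passing. In the inner root sheath and companion layer list the median log2 fold change over 11 genes was 1.36. In this list 1 gene passed, *Gata3* at 0.51 (adjusted p = 0.0116, edgeR), against 15.3% of tested genes, and the groups were apart in 5 of 11 against 11.2%. Without WT replicates 1 and 3, 7 of 7 partner proteins and 8 of 11 sheath genes passed, where 6.87% of tested genes rose. *Krt71* was at 1.25, *Krt25* at 1.23 and *Tchh*, the trichohyalin of sheath and medulla, at 1.5, none of which passed. The 7 melanocyte markers all rose, where 15.3% of tested genes did, with a median of 1.37, and *Dct*, *Pmel* and *Tyrp1* had the most counts. Without *Zfp36*ΔARE replicate 2, 3 of the 7 passed (8.41% of tested genes rose), and without WT replicates 1 and 3, 4 did (6.87%). Of 8 proliferation markers *Ccna2*, a cyclin, rose by 0.40, a share near the 15.3% of all tested genes, and the median was 0.34. *Ccna2* did not pass without WT replicates 1 and 3 or without any single library other than WT replicate 5 or *Zfp36*ΔARE replicate 1. Of 6 dermal papilla markers tested *Corin*, *Rspo3* and *Rspo4* rose and *Alpl* fell, where 15.3% of tested genes rose and 19.1% fell. Without *Zfp36*ΔARE replicate 3 a single gene of this list rose and none fell, against 8.08% and 14.3% of tested genes.

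Markers of other tissues in the biopsy moved with these results. Of 12 skeletal muscle markers 10 fell, as 19.1% of tested genes did, with a median log2 fold change of -1.51. Without WT replicates 1 and 3, 2 of the 12 fell, where 9.06% of tested genes did. Their summed level was between 250360 and 1245400 normalized counts in WT and between 145400 and 318300 in *Zfp36*ΔARE skin. The highest sums were in WT replicates 3 and 1, the same libraries in which the 10 keratins summed to 2082 and 13435 normalized counts, against 71077 to 94722 in the other WT libraries and 145500 to 429780 in *Zfp36*ΔARE skin. Of 8 adipocyte markers 6 fell (median -1.02), against 19.1% of tested genes, and 5 fell without WT replicates 1 and 3 (9.06%). Their sums were 44202 to 90356 in WT and 30991 to 42353 in *Zfp36*ΔARE libraries. All 10 macrophage markers fell (median -1.37), against 19.1% of tested genes, and 9 fell without WT replicates 1 and 3 (9.06%). Their sums were 16282 to 34081 in WT and 7991 to 12699 in *Zfp36*ΔARE libraries, and 3 of the 10 are named by the study from these libraries. Of 6 dermal fibroblast markers *Dcn*, *Lum* and *Pdgfra* fell (median -0.58), against 19.1% of tested genes, and 1 fell without WT replicates 1 and 3 (9.06%). Their sums were 158060 to 339000 in WT and 90018 to 260590 in *Zfp36*ΔARE libraries. No defining marker of these lists was at 0. In the epidermis, the integrin chains *Itga6* and *Itgb4* fell of 7 basal keratinocyte markers, by 0.29 and 0.35, against 19.1% of all tested genes. None of the 7 fell without *Zfp36*ΔARE replicate 2, where 12.9% of tested genes did. Sums of the basal markers were 213780 to 332710 in WT and 182610 to 353840 in *Zfp36*ΔARE libraries. Of 6 suprabasal markers *Ivl* alone passed, rising by 0.58, while the list's median log2 fold change was -0.36 and *Krt10*, *Krtdap*, *Krt1* and *Lor* were at -0.62, -0.51, -0.37 and -0.35. *Krt2* was higher in *Zfp36*ΔARE skin without passing. It had 15.86 to 87.7 normalized counts in WT and 20.23 to 226.81 in *Zfp36*ΔARE libraries. *Ivl* did not pass without WT replicates 1 and 3. The sums of the suprabasal markers were 282380 to 435300 and 163680 to 396900. The part of muscle, fat or immune cells in the keratin differences was not tested beyond the covariate fit above.

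**Figure D5:**
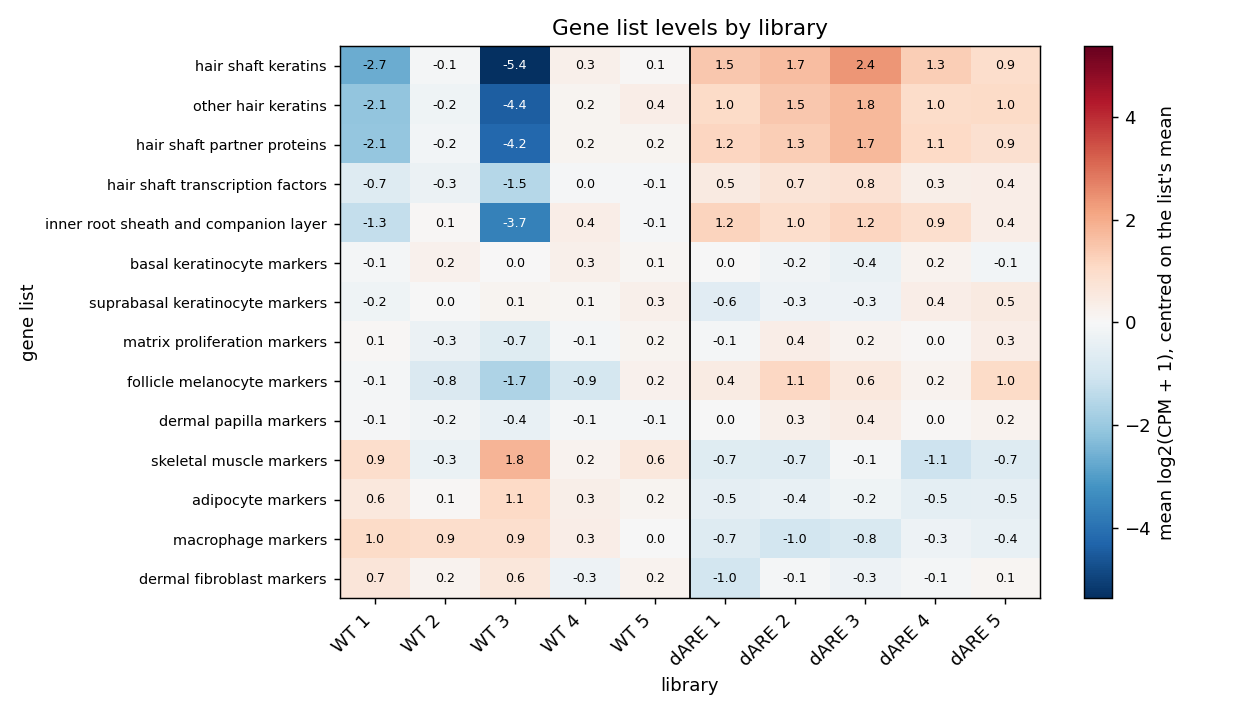
Mean log2(CPM + 1) of each gene list (rows) in each library (columns), centred on the mean of the row over the 10 libraries, with dARE standing for *Zfp36*ΔARE. The hair shaft keratins reach -5.38 in WT 3 and -2.66 in WT 1, where skeletal muscle markers are highest, and the basal keratinocyte row runs from -0.37 to 0.26 and the proliferation row from -0.65, in WT 3, to 0.37.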

How the data were processed

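Per the labels and the study's methods, the authors dropped low-quality reads, aligned the rest to mm10 with STAR 2.5.2b, counted fragments per gene with featureCounts of Subread 1.5.0-p1 and deposited the raw counts without normalization. How multi-mapping fragments and strand were handled is not given in the sources used here. The 10 columns were matched to samples by name, and 0 further columns of sample values were found. Rows without a gene name (2 rows, 7.38e-05% of counts) were left out.

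These deposited counts were scaled by TMM factors in edgeR 4.0.16 (R 4.3.3), which then applied filterByExpr and fitted the robust quasi-likelihood model with genotype alone. Tests covered 15543 genes with Benjamini-Hochberg adjustment, and calls used an adjusted p of 0.05 and a fold of 2, the cutoffs of the study. Library totals ran from 19595035 to 36419573 counts. Alternatives were DESeq2 1.42.0, limma-voom (limma 3.58.1), other scalings, filters and dispersions, a replicate block, muscle or Y-linked covariates and leaving out each library. The fit without WT replicates 1 and 3 was added after seeing the data. Ratios of raw counts were compared by exact permutation tests. The scripts were tested on simulated data.

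The 10 genes and all gene lists were chosen with earlier results of these data known. Named genes are the 10 keratins, all listed hair keratins and transcription factors, up to 3 members of other lists with the most counts, *Zfp36*, genes of the ratios and the 10 genes whose log2(CPM + 1) was most like the mean of the keratins. All tested suprabasal markers are named too. Positions came from GENCODE M21 on GRCm38, promoters from RefSeq. Equal replicate numbers did not pair the libraries. The labels do not say that every library is a separate animal, so p-values measure the spread between these 10 libraries.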

Additional observations from a re-analysis of the deposited data

Results flagged for a closer look

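In 96 groups of 5 libraries, 2 for each of 42 genes and 6 ratios, the library farthest out was set against its nearest neighbour by Dixon's criterion, with a limit of 0.71 of the range for 5 values. Such a gap was found in 5 groups, where about 4.8 would arise by chance, and in each it was *Zfp36*ΔARE replicate 3 that stood above the rest. *Krt81* had 73480 normalized counts there against 19370 to 34200 in the other *Zfp36*ΔARE libraries, a gap of 0.726 of the range. The others were genes most like the 10 keratins. *Krtap1-5* had 78990 against 22060 to 33570 (0.798), *5430421N21Rik* 46250 against 14660 to 22650 (0.747), *Krtap8-1* 147200 against 50100 to 73080 (0.763) and *Krtap7-1* 172000 against 46980 to 81260 (0.726). These genes follow each other closely over the libraries, so the 5 gaps are not independent.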

How the results depend on the processing

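Over 48 log2 differences, 42 of single genes and 6 of ratios, the direction was kept in 993 of 1002 alternative values. The number of hair shaft keratins past both thresholds, 3, and with an adjusted p under 0.05, also 3, became 10 and 10 with DESeq2. On the higher side 1.67% and 15.3% of all tested genes passed in the main fit, and 2.24% and 17.2% with DESeq2. Both numbers of keratins were 0 without a filter (1.3% and 9.77% of tested genes) and 0 with the replicate block (0.926% and 5.72%). They were also 0 with the skeletal muscle score and 0 with Y-linked counts as a covariate (0% of tested genes in each). Without WT replicates 1 and 3 they were 8 and 9 (1.24% and 6.87% of tested genes). Over the fits that leave out 1 library both ran from 0 to 7 (0.855% to 2.05% and 8.08% to 15.1% of tested genes). They stayed at 2 to 4 with limma-voom, 3 other scalings (upper quartile, size factors of DESeq2, keratin counts left out), at least 10 counts per library and non-robust dispersions. In those fits 1.25% to 2.23% of tested genes passed both thresholds on the higher side, and 12.6% to 16% the adjusted p alone. The log2 fold change of *Padi3* was -0.15 and that of *Vdr* -0.29 with the muscle covariate, and the log2 fold changes of the 10 keratins stayed above 0 in every fit run. The cause of these shifts was not tested.

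Leaving out 1 library, the log2 difference ran from -2.09 to -1.25 for *Krt35* to *Krt31*, from -1.98 to -1.14 for *Krt35* to *Krt85*, from 1.34 to 2.04 for *Krt31* to *Krt71*, from -1.43 to -0.75 for *Krt32* to *Krt31*, from -0.28 to 0.050 for *Krt85* to *Krt86* and from -0.13 to 0.13 for *Krt31* to *Krt86*. *Krt85* to *Krt86* was 0.14 without WT replicates 1 and 3. *Krt32* to *Krt31* passed without WT replicate 2 or 4 (adjusted p = 0.0476, exact permutation test).

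The replicate numbers did not pair the libraries: correlations of deviations between same-numbered libraries were -0.108, -0.192, -0.145, 0.0851 and -0.165, and no library correlated best with its own number. With the replicate block, sign-flip tests of the 3 ratios that passed gave the same differences, -1.79, -1.69 and 1.76, at an adjusted p of 0.125 (exact test, whose smallest unadjusted p is 0.0625), so this test could not pass.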
